A study of Mus musculus with 6 samples.

Results

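Gastrokines and trefoil factors are small secreted proteins of the stomach lining. The 6 mouse genes Gkn1, Gkn2, Gkn3, Tff1, Tff2 and Tff3 were taken by symbol from a table of 34866 gene identifiers, and each had 1 row. They were measured by RNA sequencing of antral mucosa, from the distal stomach, in 3 wild-type (Muc6 +/+) and 3 Muc6 -/- libraries. These are named below by genotype and by their replicate number in the labels. Muc6 encodes a gel-forming mucin made in antral glands, and the knockout mice were newly made to study its link to gastric cancer. The labels give no strain, age, sex or allele design, and do not say that replicates came from separate animals, so p-values measure only how these libraries vary, which may be technical variation.

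Gastrokine proteins carry a BRICHOS domain, a fold found in several secreted and membrane proteins. GKN1 and GKN2 are made by surface (pit) mucous cells, and GKN2 forms a disulfide-linked pair with TFF1. Gkn3 is known from mucous cells deeper in the gland. Trefoil factors are compact, protease-resistant peptides that are secreted with mucins and help the epithelium to close after injury. TFF1 is released with the surface mucin MUC5AC, TFF2 with the gland mucin MUC6, and TFF3 with the goblet cell mucin MUC2 of the intestine.

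The 3 gastrokine genes lie within 43.3 kb of chromosome 6 (mm10, 87345650 to 87388935) and the 3 trefoil genes within 40.0 kb of chromosome 17 (31125306 to 31165277). Gkn2 is on the plus strand between its neighbours Gkn1 and Gkn3 on the minus strand, and each of the 3 has 6 exons. The trefoil genes are all on the minus strand, in the order Tff3, Tff2, Tff1 by rising coordinate. An annotated antisense gene, Gm15318, overlaps Tff1 and has no row in the deposited counts. The library kit was stranded, but whether the counting used the strand is not given in the sources used here. Whether antisense reads entered the Tff1 counts therefore cannot be told. The promoters of the gastrokine genes are shown because Gkn1 and Gkn2 fell together while the adjacent Gkn3 did not. The following are the 200 bases before each RefSeq start (GRCm38.p6, the assembly of mm10), at chr6:87350916-87351115 (minus strand), chr6:87373165-87373364 (plus strand) and chr6:87388936-87389135 (minus strand), with GATAA and TATAAA matches on either strand in capitals.
Gkn1: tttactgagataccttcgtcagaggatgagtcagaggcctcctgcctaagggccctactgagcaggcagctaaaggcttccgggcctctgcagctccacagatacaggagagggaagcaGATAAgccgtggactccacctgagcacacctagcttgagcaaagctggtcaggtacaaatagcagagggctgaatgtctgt
Gkn2: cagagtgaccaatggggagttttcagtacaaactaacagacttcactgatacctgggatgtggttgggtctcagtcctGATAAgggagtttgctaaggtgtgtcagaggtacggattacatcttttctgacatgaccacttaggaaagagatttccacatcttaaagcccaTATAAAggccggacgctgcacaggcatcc
Gkn3: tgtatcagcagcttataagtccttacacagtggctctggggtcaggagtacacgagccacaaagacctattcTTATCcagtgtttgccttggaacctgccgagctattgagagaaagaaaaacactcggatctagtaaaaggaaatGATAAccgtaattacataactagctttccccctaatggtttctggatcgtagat
The 250 bases before each start were searched on both strands for GATAA, the core of GATA factor sites, TATAAA, the TATA box, TGTTTAC, a forkhead site, and CACCC, a Kruppel-like factor site. None of these motifs is contained in another. GATAA occurred 2 times in each gastrokine promoter, and 4.28% of 32851 RefSeq promoters of that length held at least 2 (22.6% held 1 or more). In Gkn1 the matches began at -220 and -81, in Gkn2 at -217 and -122, and in Gkn3 at -128 and -54, counted from -1 at the base before the start. TATAAA was found in Gkn2 alone of the 3, at -29, and 12.4% of promoters held it. CACCC was found in Gkn1, at -246, against 52.0% of promoters, and TGTTTAC in none of the 3, against 3.2%. These matches are letters, not measured sites.

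The coding sequences of Tff1 and Tff3 are shown because these genes had the highest and the lowest trefoil level in wild type, and because reads shared between family members could mix their counts. Both were cut from GENCODE M21 transcripts (264 and 246 bases), and the capitals mark their longest identical run, of 9 bases.
Tff1: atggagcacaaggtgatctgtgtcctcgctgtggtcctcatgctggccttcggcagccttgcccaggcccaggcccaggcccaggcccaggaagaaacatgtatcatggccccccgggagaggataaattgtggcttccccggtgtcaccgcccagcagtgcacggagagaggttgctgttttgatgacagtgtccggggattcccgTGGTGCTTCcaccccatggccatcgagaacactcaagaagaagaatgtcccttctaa
Tff3: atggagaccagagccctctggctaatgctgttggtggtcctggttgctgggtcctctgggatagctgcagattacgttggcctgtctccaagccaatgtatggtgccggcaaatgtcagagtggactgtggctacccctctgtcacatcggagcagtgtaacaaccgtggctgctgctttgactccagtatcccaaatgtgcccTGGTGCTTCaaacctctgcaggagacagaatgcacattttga
Between Tff2 and Tff3 the longest identical run was 14 bases and between Tff1 and Tff2 it was 11. Among the gastrokines, whose coding sequences are 555 to 576 bases, it was 8 to 10. No run was longer than 14 bases within either family. Only coding sequences were compared, while the exonic length is 1250 bases for Gkn1 and 703 bases for Tff1. Whether reads were shared outside the coding sequences was not tested.

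Library totals were 19839799 to 21354029 estimated counts. Of 14017 genes that passed the low-count filter, 5386 were called at an adjusted p under 0.05 (edgeR quasi-likelihood test with Benjamini-Hochberg adjustment), and all 6 members passed the filter. Levels are given as CPM, counts scaled to a library size corrected for composition (TMM). Muc6 was at 396 to 510 CPM in wild type and at 0 to 0.0425 CPM in the knockout. The 4 Y-linked genes checked summed to 5.85 to 6.73 CPM in wild type and 132 to 139 CPM in the knockout, so the sex of the animals and the genotype cannot be told apart in any result here. The antral hormone gene Gast was at 762 to 1196 CPM in wild type and 9.52 to 24.8 CPM in the knockout, while Pdx1, an antral transcription factor gene, was at 29.4 to 42.1 and 54.9 to 61.2 CPM. Of 8 tested marker genes of the gastric body 6 were lower and none higher (summed 133 to 562 against 12.2 to 79.3 CPM, lowest in wild type 1). Of 8 squamous genes of the forestomach 4 were tested and all 4 were higher (4.81 to 9.40 against 151 to 167 CPM). Most of these 4 were near 0 in wild type and passed the filter only through the knockout. Such genes could be called higher but not lower. The 4 not tested did not reach 1 CPM in any library. Immune genes were higher in 3 of 6 and lower in none (9.13 to 63.2 against 111 to 236 CPM), stromal genes were higher in 1 of 7 and lower in none (168 to 2415 against 354 to 931 CPM), and the 1 tested pancreatic gene did not pass. The immune and stromal sums were lowest in wild type 1, at 9.13 and 168 CPM, against 57.7 and 1268 CPM in wild type 2. Among all 14017 tested genes 19.3% were higher and 19.2% lower. Some gastric body and immune genes also passed the filter through 1 genotype alone and could be called in 1 direction only. The part of these tissues and cells in the results below was not tested.

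In the knockout the most abundant gastrokines, Gkn1 and Gkn2, fell 4.33-fold and 5.18-fold, Tff2 rose 2.67-fold, and Tff3 rose from near 0 in libraries that differed widely. Tff1 fell 1.64-fold after composition scaling, and Gkn3 did not pass the test. Called members were thus 5 of 6, with 2 higher and 3 lower, where 38.4% of all tested genes were called, 19.3% higher and 19.2% lower. Those 6 genes together held 13.7% to 15.9% of all counts of a wild-type library and 5.83% to 7.75% of a knockout library. Gastrokines alone took 11.9% to 13.1% (wild type) and 2.88% to 4.25% (knockout), while the trefoils took 1.88% to 3.05% and 2.95% to 3.50%. The gastrokine shares did not overlap between genotypes, while the trefoil shares did.

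**Figure D1:**
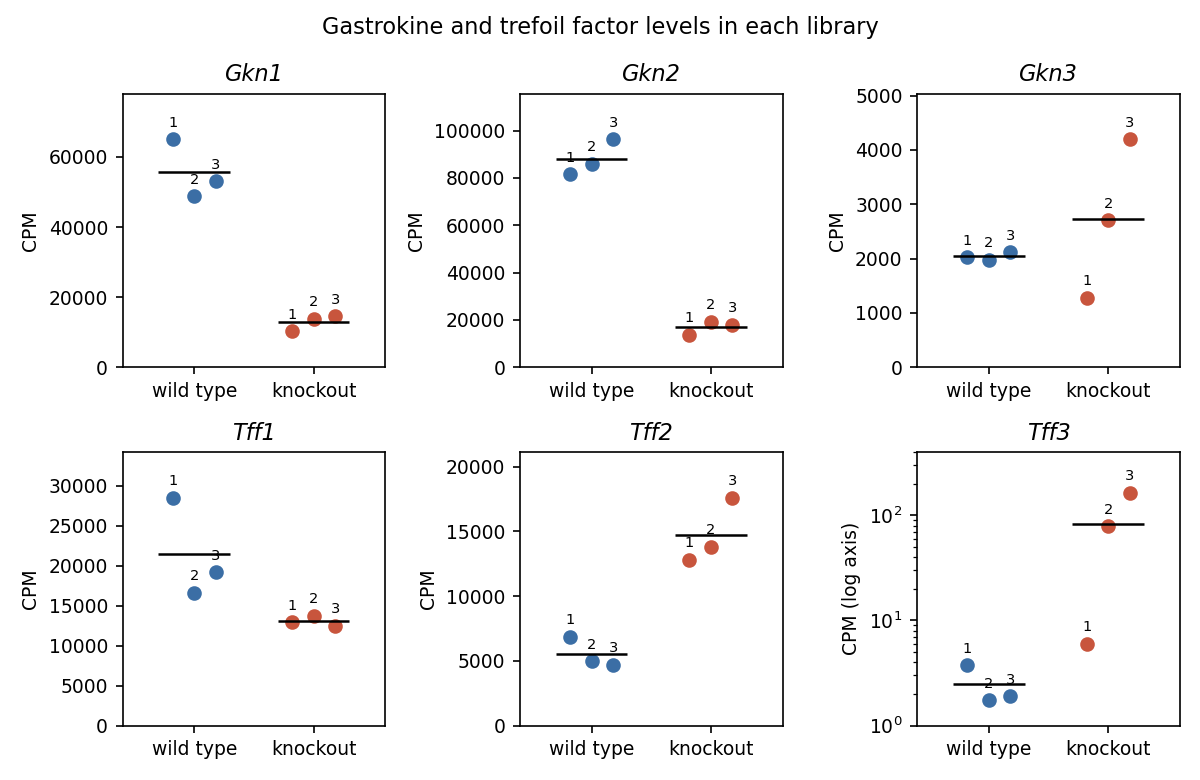
Level of each of the 6 genes in CPM, on a linear axis from 0 except for Tff3, whose axis is logarithmic. Points are single libraries with their replicate number and lines are means of 3. The knockout points of Gkn1 and Gkn2 lie far below the wild-type points, those of Tff2 above them, and those of Gkn3 on both sides.

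Gkn1 (ENSMUSG00000030050.4), a surface cell protein also known as an antral growth-promoting peptide, had 65087, 48760 and 53123 CPM in wild type 1, 2 and 3. In knockout 1, 2 and 3 it was at 10266, 13809 and 14531 CPM. Every knockout library was below every wild-type library, and wild type 1 held the most. The log2 fold change of knockout over wild type was -2.11 (SE 0.21, edgeR adjusted p = 6.15e-04, n = 3 each).

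Gkn2 (ENSMUSG00000030049.5), the partner of TFF1, was the most abundant member in wild type, with 81633, 86063 and 96398 CPM. In the knockout it was at 13709.8, 19246 and 18025 CPM, lowest in knockout 1 as Gkn1 was. The groups did not overlap, as was so for 54.8% of all tested genes. Its log2 fold change was -2.37 (SE 0.20, edgeR adjusted p = 4.06e-04). Both falls exceeded 4-fold, as did those of 2.01% of tested genes, though with total counts in place of TMM they were smaller (-1.69 and -1.95 on the log2 scale). In bulk tissue, fewer cells of a type and less RNA in each cell cannot be told apart.

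Gkn3 (ENSMUSG00000030048.5), the gastrokine of the deeper gland, differed from both. In wild type it was nearly constant, at 2026, 1975 and 2119 CPM, with an SD of 3.57% of the mean. The knockout libraries were spread over a 3.29-fold range, at 1276, 2702 and 4199 CPM, so that knockout 1 lay below every wild-type library and knockout 2 and 3 above. The log2 fold change was 0.42 (SE 0.39, edgeR adjusted p = 0.434), and 0.84 with total counts (0.127). Without knockout 1 it was 0.76 (adjusted p = 0.0263), and without knockout 3 it was -0.030 (0.950), so 1 library decides whether Gkn3 is called and its sign.

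Tff1 (ENSMUSG00000024032.6), the trefoil peptide of surface cells, was at 28529, 16620 and 19187 CPM in wild type, highest in wild type 1. In the knockout it was at 12958, 13768 and 12518 CPM, an SD of 4.85% of the mean, and no library reached the lowest wild-type value. The log2 fold change was -0.71 (SE 0.22, edgeR adjusted p = 0.0362). This call rests on the scaling and on single libraries. Scaled to total counts, the change was -0.29 (adjusted p = 0.289). Without wild type 1 it was -0.46, still called, and the call ended without wild type 3 or any 1 knockout library (0.0577 to 0.104).

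Tff2 (ENSMUSG00000024028.7), the trefoil peptide packed with Muc6 in gland mucous cells, was the only member whose rise passed the test in each alternative tried. It was at 6875, 4989 and 4701 CPM in the wild-type libraries and at 12821.5, 13835 and 17617 CPM in the knockout. The lowest knockout library held 1.86 times the level of the highest wild-type library. The log2 fold change was 1.42 (SE 0.21, edgeR adjusted p = 0.00222), while Muc6 itself was nearly absent from the same libraries.

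Tff3 (ENSMUSG00000024029.4), the goblet cell trefoil peptide, was almost absent from wild type, at 3.75, 1.74 and 1.91 CPM, which were 69, 31 and 33 counts. It was at 5.99 CPM in knockout 1, close to wild type 1, but at 78.9 and 164 CPM in knockout 2 and 3, a 27.4-fold range within the genotype. The log2 fold change was 5.06 (SE 1.30, edgeR adjusted p = 0.0314). The call held without knockout 1 (adjusted p = 0.00140) and ended without any 1 of the other 5 libraries (0.0692 to 0.105), with limma-voom (0.342) and with no low-count filter (0.0815).

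**Figure D2:**
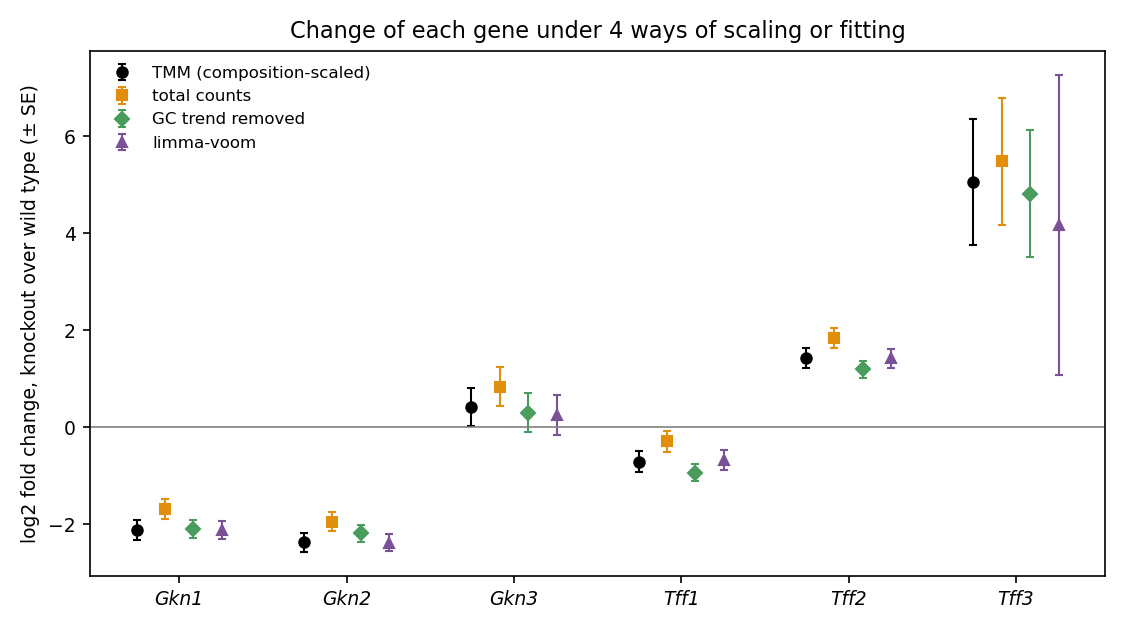
Log2 fold change of knockout over wild type for each gene, with its SE, under composition scaling (TMM), total counts, removal of each library's GC trend, and limma-voom. Gkn1 and Gkn2 lie below 0 and Tff2 above 0 in all 4, Tff1 moves from -0.71 to -0.29 with total counts, and the SE of Tff3 is the largest.

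Of the members 4 were among the 20 most abundant genes. With total counts the median log2 fold change over all genes shifted by 0.417. Under it, 40.9% of tested genes were higher and 7.78% lower, and Tff2 and Tff3 were higher by 1.84 and 5.49. Leaving the 6 members, or the 20 most abundant genes, out of the library sizes before TMM gave a Tff1 change of -0.71 and -0.72, against -0.71 with them in.

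Levels between genes were compared as TPM, in which counts are divided by exonic length and scaled to the same sum in each library. In wild type the order was Gkn2 at 165140 ± 12247 TPM (SD, n = 3), Gkn1 at 65935 ± 10787.5, Tff1 at 45221 ± 13786, Tff2 at 14011 ± 3186, Gkn3 at 3525 ± 109.8 and Tff3 at 7.43 ± 3.45. The ranges of Gkn1 and Tff1 overlapped, and the others did not. In the knockout Tff2 came first at 60414 ± 9488 TPM, followed by Gkn2 at 51587 ± 8485, Tff1 at 44565 ± 2504, Gkn1 at 24616 ± 4105, Gkn3 at 7588 ± 3979.9 and Tff3 at 399.8 ± 378. There the ranges of Tff2 and Gkn2 overlapped, as did those of Gkn2 and Tff1. On this scale, which has no composition factor, the means of Tff1 were within 1 SD of each other.

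**Figure D3:**
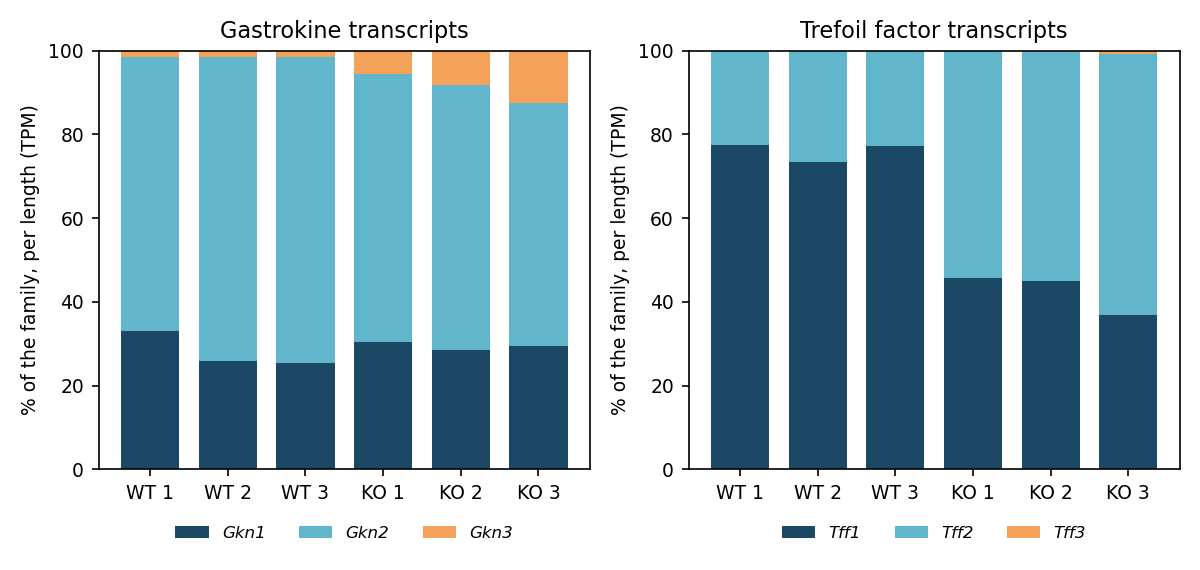
Make-up of the gastrokine transcripts (left) and trefoil transcripts (right) of each library, in percent of the family's summed TPM. WT is wild type and KO is knockout. Gkn3 grows from 1.48% to 1.53% in wild type to 5.50% to 12.4% in the knockout, and Tff2 from 22.5% to 26.5% to 54.3% to 62.4%.

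A ratio of 2 genes within a library does not depend on how libraries are scaled. Of 5 such ratios of counts, 4 separated the genotypes completely. They are made from the same counts as the changes above, so they are not separate evidence of those changes. Levels of single genes did so for 54.8% of all tested genes, and the share over pairs of genes was not computed. Each of those 4 had an exact two-sided permutation p of 0.1, the smallest that 3 against 3 libraries can give, and 0.125 after adjustment over the 5. Tff1 over Gkn2, the protein partners, was 0.349, 0.193 and 0.199 in wild type and 0.945, 0.715 and 0.694 in the knockout, higher by 1.71 on the log2 scale. Every knockout library held more Tff1 for each Gkn2 count than any wild-type library.

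Tff2 over Tff1, a gland against a surface trefoil, was 0.241, 0.3002 and 0.245 in wild type and 0.989, 1.005 and 1.41 in the knockout, higher by 2.10 on the log2 scale. Gkn3 over Gkn1 was 0.0311, 0.0405 and 0.0399 in wild type and 0.124, 0.196 and 0.289 in the knockout, higher by 2.38. In this ratio knockout 1 was above the wild-type libraries as well, although its Gkn3 level was below theirs. Tff3 over Tff1 was higher by 4.87 on the log2 scale, from between -13.29 and -12.89 to between -11.08 and -6.25.

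Gkn2 over Gkn1 was the exception. It was 1.25, 1.77 and 1.81 in wild type and 1.34, 1.39 and 1.24 in the knockout, with wild type 1 inside the knockout range. The difference was -0.27 on the log2 scale (exact permutation p = 0.3, also 0.3 adjusted). This difference was smaller than the SD among wild-type libraries, 0.30, which does not show that the 2 genes changed alike.

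Other genes of the surface mucous cells were lower too. Of 10 marker genes listed without the members, 9 were tested, 7 fell, none rose and 2 (Foxq1 and Krt20) did not pass, with a median log2 fold change of -1.598 against 0.02 over all tested genes. Over all tested genes 19.2% fell and 19.3% rose. The list was chosen with earlier results of these data known, so the comparison with these shares is not independent. With total counts 6 of the marker genes fell and none rose. Their summed level was 20234 to 21686 CPM in wild type and 4383 to 6050 CPM in the knockout. Muc5ac, the surface mucin, was at 6279, 5740 and 6141 CPM in the wild-type libraries and at 270, 868 and 1274 CPM in the knockout (log2 fold change -2.91, SE 0.55, edgeR adjusted p = 0.0101). Like Gkn1 and Gkn2 it was lowest in knockout 1.

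The annexin gene Anxa10 and the junction protein gene Vsig1 had log2 fold changes of -1.97 and -1.598. For Capn8, encoding a calpain of the stomach, and Sytl2, of vesicle trafficking, they were -1.53 and -1.48. The part of these cells' number in the gastrokine values was not tested.

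**Figure D4:**
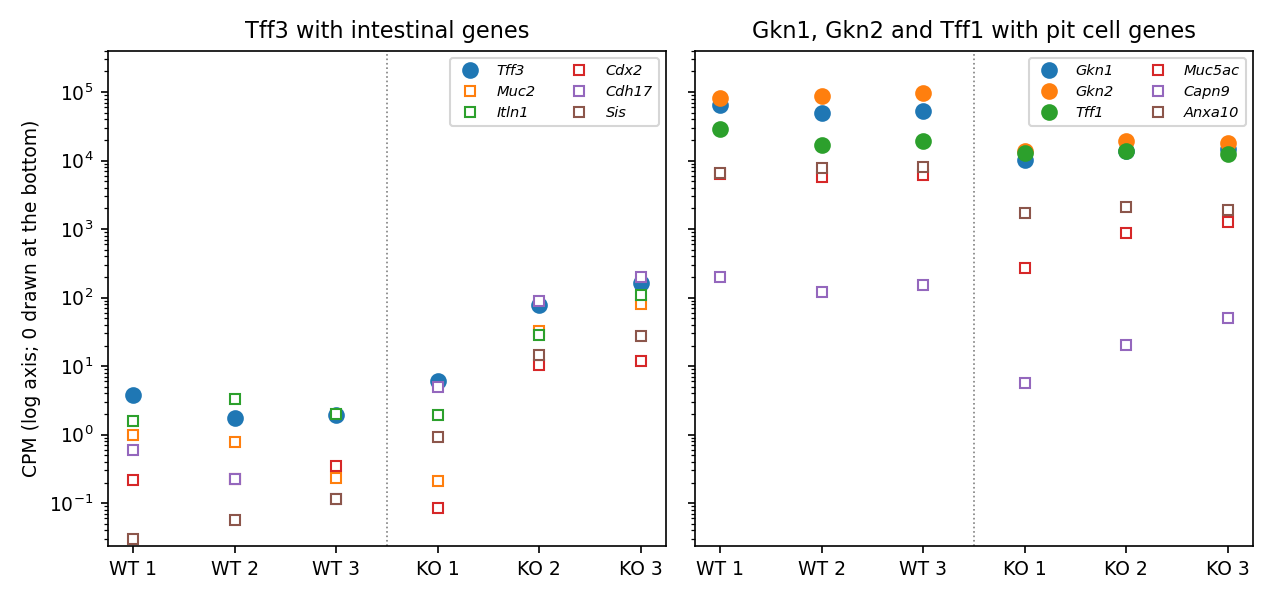
Levels by library (WT wild type, KO knockout) in CPM on logarithmic axes, with members as filled circles and other genes as open squares. Left, Tff3 is drawn with Muc2, Itln1, Cdx2, Cdh17 and Sis, picked from the goblet and enterocyte lists, all highest in knockout 2 and 3. In knockout 1 Cdh17 and Sis were already above every wild-type library, as was Tff3. Genes of these lists with a lower mean in the knockout, such as Fabp2, Clca1, Zg16 and Anpep, are not drawn. Of those, Zg16 and Anpep were not called. Right, Gkn1, Gkn2 and Tff1 are drawn with 3 pit cell genes, all lower in the knockout.

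Gland mucous cell genes, with the members and the deleted Muc6 left out, moved in both directions, with 5 of 8 higher, 2 lower and 1 not passing (median 1.39). The shares over all tested genes were 19.3% higher and 19.2% lower, with a median of 0.02. The sum of the 8 gland genes, mostly Pgc in wild type, was 4584 to 5988 CPM in wild type and 1211 to 2664 CPM in the knockout. Its fall therefore follows Pgc and not the list, of which 5 of 8 were higher. The gene that did not pass, A4gnt, was at 67.4 to 99.4 CPM in wild type and 48.1 to 175 CPM in the knockout. Cftr, a chloride channel gene, and Bpifb1, a secreted defence protein gene, rose by 3.10 and 4.50 on the log2 scale, while Smim6 fell by 0.83. Pgc, the pepsinogen C gene, was at 3917 to 5348 CPM in wild type and at 132, 499 and 1103 CPM in knockout 1, 2 and 3.

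Genes of the intestine were followed beside Tff3. Of 13 enterocyte genes 10 were tested, 5 were higher, 1 was lower and 4 did not pass, with sums of 961 to 989 CPM in wild type and 430 to 2444 CPM in the knockout. Over all tested genes 19.3% were higher and 19.2% lower. All the higher enterocyte genes but Vil1 were near 0 in wild type and passed the low-count filter only through the knockout. For those a rise was the only call possible, so the count is not read as a result against these shares. Vil1, the villin gene, rose by 0.72 on the log2 scale. Akp3, an alkaline phosphatase gene, was at 0 to 0.870 CPM in wild type and at 28.0, 525 and 1139 CPM in knockout 1, 2 and 3, lowest in knockout 1 as for Tff3. Mep1b, a brush border protease gene, was at 0.0562 to 0.109 CPM and then at 3.40, 16.95 and 34.8 CPM. The lower gene was Fabp2, a fatty acid-binding protein gene, at 677 to 754 CPM in wild type and 19.4 to 202 CPM in the knockout, and with total counts 7 enterocyte genes were higher and none lower.

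Goblet cell genes were mixed. Of 10 listed, 7 were tested, and Spdef, a transcription factor gene of mucous cells, rose by 1.21 on the log2 scale, Clca1, a secreted goblet cell protein gene, fell by 0.62 and 5 did not pass. Among all tested genes 19.3% rose and 19.2% fell. With total counts 3 goblet cell genes were higher and none lower, and Clca1 was at -0.20 (edgeR adjusted p = 0.438). Their sum, mostly Clca1, was 3591 to 5985 CPM in wild type and 2646 to 4045 CPM in the knockout. Muc2, the goblet cell mucin, was at 0.978, 0.787 and 0.232 CPM in the wild-type libraries and at 0.212, 32.9 and 81.5 CPM in the knockout (log2 fold change 5.82, SE 1.92, edgeR adjusted p = 0.0647). Like Tff3 it was high in knockout 2 and 3 alone, but it did not pass the test. Atoh1, the gene of a goblet cell fate factor, was at 0 in every wild-type library and in knockout 1, and at 1.25 and 1.70 CPM in knockout 2 and 3. Cdx2, a master gene of intestinal identity, was at 0.217 to 0.348 CPM in wild type, 0.0850 CPM in knockout 1, and 10.5 and 11.7 CPM in knockout 2 and 3. The part of these cells in the Tff3 value was not tested.

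The genes most like each member were found as the smallest root mean square difference of centred log2 CPM over the 6 libraries, among 12434 genes. For Gkn2 these were Mllt3, a chromatin reader gene (0.08), Pdk4, a pyruvate dehydrogenase kinase gene (0.12), and Proz, the protein Z gene (0.14). Mllt3 was at 406, 368 and 402 CPM in the wild-type libraries and at 58.4, 83.4 and 78.9 CPM in the knockout. Between Gkn1 and Gkn2 the difference was 0.22. The nearest genes are the smallest of 12434 differences, so that they were closer than the neighbour does not show that Gkn1 and Gkn2 differ.

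For Gkn1 the nearest were Upk1a, a uroplakin gene (0.11), Pstpip1 (0.12) and Tmem238l (0.12). For Tff1 they were Tmem51, Mpv17l2 and Cotl1 (0.08 each), and for Tff2 they were Grwd1 (0.10), Wtip (0.11) and Gaa (0.11). The nearest to Gkn3 was Axin2, a Wnt target gene (0.10), at 3.53, 3.04 and 3.77 CPM in the wild-type libraries and 1.997, 4.74 and 6.32 CPM in the knockout, followed by Cpn1 (0.12) and Sema6a (0.15). For Tff3 the nearest were farther off. They were Cyp4f14, a cytochrome P450 gene (0.19), Isx, an intestinal homeobox gene (0.37), and Ada, the adenosine deaminase gene (0.40).

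Among 11 mucins and mucus proteins known to occur with these peptides, the deleted Muc6 left out, 4 were higher, 2 lower and 5 did not pass (median 1.197). Over all tested genes 19.3% were higher and 19.2% lower. With total counts there were 6 of these genes higher and, Muc6 included, 2 lower. Muc13, a membrane mucin gene, rose from 2.06 to 3.19 CPM to between 230 and 262 CPM. Dmbt1, a scavenger receptor that binds trefoil peptides, rose by 2.503 on the log2 scale and was highest in knockout 1, at 5400 CPM against 2953 and 1850 in knockout 2 and 3. Muc5b, another gel-forming mucin gene, rose from 0 to 0.169 CPM in wild type but only to 1.31 to 3.16 CPM.

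Of 7 other BRICHOS genes 3 were tested, with Itm2c higher by 0.87, Itm2a lower by 1.93 and 1 not passing, and the call of Itm2a ended with total counts (adjusted p = 0.0551). Of 4 other trefoil domain genes 3 were tested and all 3 rose, where 19.3% of all tested genes were higher and 19.2% lower. Mgam and Sis were near 0 in wild type and passed the low-count filter only through the knockout libraries. They could be called higher but not lower, so the count of 3 is not read as a result. Sis is among the enterocyte genes above as well, so the 2 lists are not separate. These are sugar-digesting enzymes: Gaa, the lysosomal glucosidase gene, rose by 1.43, from 18.6 to 23.9 CPM to between 50.3 and 61.1 CPM. The intestinal glucosidase gene Mgam was at 0.406 to 0.450 CPM in wild type and at 22.2, 69.1 and 124 CPM in knockout 1, 2 and 3. Sis, the sucrase gene, was at 0 to 0.116 CPM in wild type and 0.935, 14.5 and 27.9 CPM in the knockout, which is the order of Tff3.

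Of 6 receptors reported for trefoil factors 3 were tested, and Cxcr4, a chemokine receptor reported for TFF2, rose by 1.58 on the log2 scale (SE 0.26, edgeR adjusted p = 0.00378), from 3.25 to 4.62 CPM to between 8.16 and 13.0 CPM. Ackr3 and Egfr did not pass (edgeR adjusted p = 0.248 and 0.516), while 19.3% of all tested genes were higher and 19.2% lower. The 3 not tested, Lingo2, Lingo3 and F2rl3, did not reach 1 CPM in any library.

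Of 26 transcription factors reported for these genes or for stomach and intestine identity, 23 were tested, 10 rose, 6 fell and 7 did not pass. The median change was 0.36 against 0.02 over all tested genes, of which 19.3% rose and 19.2% fell. Stat3, a cytokine-activated factor, rose by 0.64 on the log2 scale, while Runx3 was at 0.0543 to 0.116 CPM in wild type and 0.873 to 1.74 CPM in the knockout. Gata6, a GATA factor of the gut epithelium, fell by 0.68 on the log2 scale, from 70.2 to 83.8 CPM to between 45.1 and 48.4 CPM. With total counts 15 were higher and none lower, and the fall of Gata6 was then 0.26 and not called (adjusted p = 0.0734).

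Of 12 genes of the mucous secretory machinery 10 were tested, 6 rose, 2 fell and 2 did not pass (7 and 2 with total counts). Over all tested genes 19.3% rose and 19.2% fell. Spdef, Creb3l1 and Galnt12 rose by 1.21, 0.93 and 0.54, and Agr3 fell by 2.93. Spdef and Creb3l1 were highest in knockout 3, at 64.8 and 120 CPM, which was also the library highest in Tff2 and Tff3.

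Genes next to the members moved in both directions. Of 28 protein-coding genes starting within 500 kb of a member, 20 were tested, 6 rose, 2 fell and 12 did not pass, with a median of 0.20 (10 higher and 1 lower with total counts). Over all tested genes 38.4% were called, 19.3% higher and 19.2% lower, with a median of 0.02. These counts are therefore not read as a result about the 2 loci. Beside the trefoils, Abcg1, a sterol transporter gene, and Tmprss3, a serine protease gene, rose by 2.64 and 1.86. Beside the gastrokines, Cnbp, a nucleic acid-binding protein gene, fell by 0.92 and Gfpt1, a gene of amino sugar synthesis, rose by 0.69. Antxr1, the nearest tested neighbour of the gastrokines, did not pass (-0.83, adjusted p = 0.0986), and Bmp10 on the other side was at 0.0416 to 0.225 CPM.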

How the data were processed

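RNA-seq of antral gastric mucosa covered 3 wild-type and 3 Muc6 knockout libraries, made with a kit for polyadenylated, stranded RNA per the labels' protocols. The authors deposited estimated counts per gene, which is inferred from the values: 28.8% to 34.3% of those above 0 are not whole. The build was mm10 per the submitters' processing notes, while no source used here gives the aligner, counter or annotation. Counts were rounded, 34582 of 34866 identifiers were matched to GENCODE M21 on the same build, and groups came from the labels. The main test was edgeR 4.0.16 (filterByExpr, TMM, robust quasi-likelihood, Benjamini-Hochberg over 14017 genes, R 4.3.3), checked on simulated data. CPM divide counts by the library size times its TMM factor, scaled to 1e+06, and 1 count is 0.0416 to 0.058 CPM. Replicates differed by more than sampling (chi-square over degrees of freedom 16 to 79.6). Alternatives were other scalings, filters and thresholds, DESeq2 1.42.0, limma-voom (limma 3.58.1), a replicate block, removal of GC trends and leaving out libraries. The members and gene lists were chosen with earlier results of these data known, and list genes were named by a rule: up to 4 with the smallest adjusted p among those called, or 2 where none was, and always Muc5ac, Muc6, Muc2 and Gast. In any list, a gene near 0 in 1 genotype could pass the low-count filter through the other alone. Such a gene, as Muc5b and Runx3, could be called in 1 direction only. The 3 most alike genes had a mean of at least 1 CPM. Foxq1, Krt20, Pgc, A4gnt, Fabp2, Zg16, Anpep, Atoh1, Cdx2, Antxr1, Bmp10, the receptors not called and the Cdh17, Itln1 and Capn9 points were added after their values were seen. A gene that the rule names is not reported here.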

Additional observations from a re-analysis of the deposited data

How the results depend on the processing

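The changes of Gkn1, Gkn2 and Tff2 kept their direction and call in each alternative run. With total counts 5730 genes were higher and 1091 lower, and Tff1 was at -0.29 and not called. The number of members higher was 1 with no low-count filter, with limma-voom, with the replicate block and at a threshold of 0.01, since Tff3 (5.08, 4.17, 4.33 and 5.06) did not pass there. At 0.01 there were 1257 genes higher and 1408 lower, and Tff1 (-0.71) did not pass. The replicate numbers are not known to pair samples: same-numbered libraries correlated in their deviations at 0.252, 0.0908 and 0.191, and wild type 3 correlated best with knockout 2 (0.275). With the replicate block 2572 genes were higher and 2497 lower, and Tff1 was at -0.67 and not called (adjusted p = 0.0601). Without both libraries numbered 1, chosen after seeing the data, Gkn3 was called at 0.73 (adjusted p = 0.0265). Leaving out 1 library gave 1600 to 3045 genes higher, fewest without wild type 2, and 1721 to 2964 lower, fewest without knockout 2, with 1742 without wild type 2. Members higher then numbered 1 to 3 and lower 2 to 3, with Gkn1 from -2.20 to -1.97, Gkn2 from -2.47 to -2.24, Gkn3 from -0.030 (without knockout 3) to 0.76, Tff1 from -0.86 to -0.46, Tff2 from 1.28 to 1.597 and Tff3 from 4.10 to 5.61. Each of the 5 ratios kept its sign. The cause of these differences was not tested. With total counts 29 of 36 counts over gene lists were within 1.5 times, 2 were larger and 5 smaller. Depth limits Tff3 in wild type most, at 31 to 69 counts a library.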
